A study of Mus musculus with 2 samples.

Results

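The interleukin 1 family is followed here through 9 genes in mouse dorsal skin: the ligands Il1a, Il1b, Il18 and Il33, the receptor antagonist Il1rn, the signalling receptor Il1r1, its accessory chain Il1rap, the decoy receptor Il1r2, and Il1rl1, which encodes ST2, the receptor for IL-33. The members were chosen by symbol, and all 9 were found among the 33904 genes of both matrices. They were measured by single-cell RNA sequencing (10x Genomics, 3′ chemistry) in 2 libraries, 1 per group. Both groups were female C57BL/6J mice aged 7 weeks whose depilated back skin was treated daily and taken on day 10. The Ctrl library received ethanol, the vehicle. The AD library received MC903 (calcipotriol, a vitamin D analogue used to induce a dermatitis that models atopic dermatitis) at 4.5 nmol per application. The number of mice behind each library is not given in the sources used here. With 1 library per group no test was possible. Every difference therefore compares these 2 libraries, has no replicate check, and carries a 95% interval that covers counting error only.

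IL-1α and IL-1β signal through the same receptor, IL-1R1, which needs the accessory chain IL-1RAP to start signalling through MyD88. IL-1RN occupies that receptor without signalling, and IL-1R2 binds the same ligands but lacks the signalling domain, so that it takes them away. IL-1β and IL-18 are made as inactive precursors that are cut by caspase-1, whereas IL-1α and IL-33 are held in epithelial and stromal cells and act as alarm signals when these cells are damaged. IL-33 acts through ST2, paired with the same accessory chain, and is known in skin for its effect on mast cells, basophils, regulatory T cells and type 2 innate lymphoid cells.

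After filtering, 11399 of 12598 Ctrl barcodes and 8179 of 8778 AD barcodes were kept, with medians of 7813 and 6330 UMIs (distinct captured transcript molecules) per cell. In all, 35 barcode sequences occurred in both libraries. Cells were assigned to a type when they carried at least 3 of its marker genes, which placed 89.1% of kept cells in Ctrl and 83.0% in AD. The makeup of the libraries differed: keratinocytes of the suprabasal gate numbered 438 in Ctrl and 19 in AD, neutrophils 5 and 47, and basophils 7 and 47. Of all UMIs, fibroblasts held 50.3% in Ctrl and 59.1% in AD, keratinocytes of all gates 28.9% and 9.15%, and macrophages 2.31% and 2.78%. These are the base for the shares of a gene's UMIs given below. Of 14 clusters made up mainly of fibroblasts, 11 drew at least 95% of their cells from 1 library, and the summed level of the 7 fibroblast markers was lower in AD fibroblasts (12957 CPM) than in Ctrl fibroblasts (55303 CPM). The 6 suprabasal keratinocyte markers summed to 583 CPM in Ctrl T cells and 12.8 CPM in AD T cells, so keratinocyte RNA outside keratinocytes also differed between the libraries, and its part in the results was not tested.

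The unit of level is CPM: a gene's UMIs, summed over the cells of a gate, are divided by all UMIs of those cells and multiplied by 1000000. Since each captured molecule adds 1 UMI whatever the transcript's length, levels of different genes are compared on the same per-molecule scale, apart from differences in capture. Counting at the 3′ end does not separate soluble from membrane forms of Il1rl1, Il1rap and Il1r2, nor secreted from intracellular Il1rn. In GRCm38 coordinates, Il1a (chr2:129299610-129309972) and Il1b (chr2:129364570-129371139) lie side by side on the minus strand, and Il1rn (chr2:24336853-24351494) lies on the plus strand of the same chromosome. Il1r2 (chr1:40074079-40125231), Il1r1 (chr1:40225080-40317257) and Il1rl1 (chr1:40429570-40465415) follow each other on the plus strand of chromosome 1. Il18 (chr9:50554827-50581840), Il1rap (chr16:26581704-26730117) and Il33 (chr19:29925114-29960718) lie apart.

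**Figure D1:**
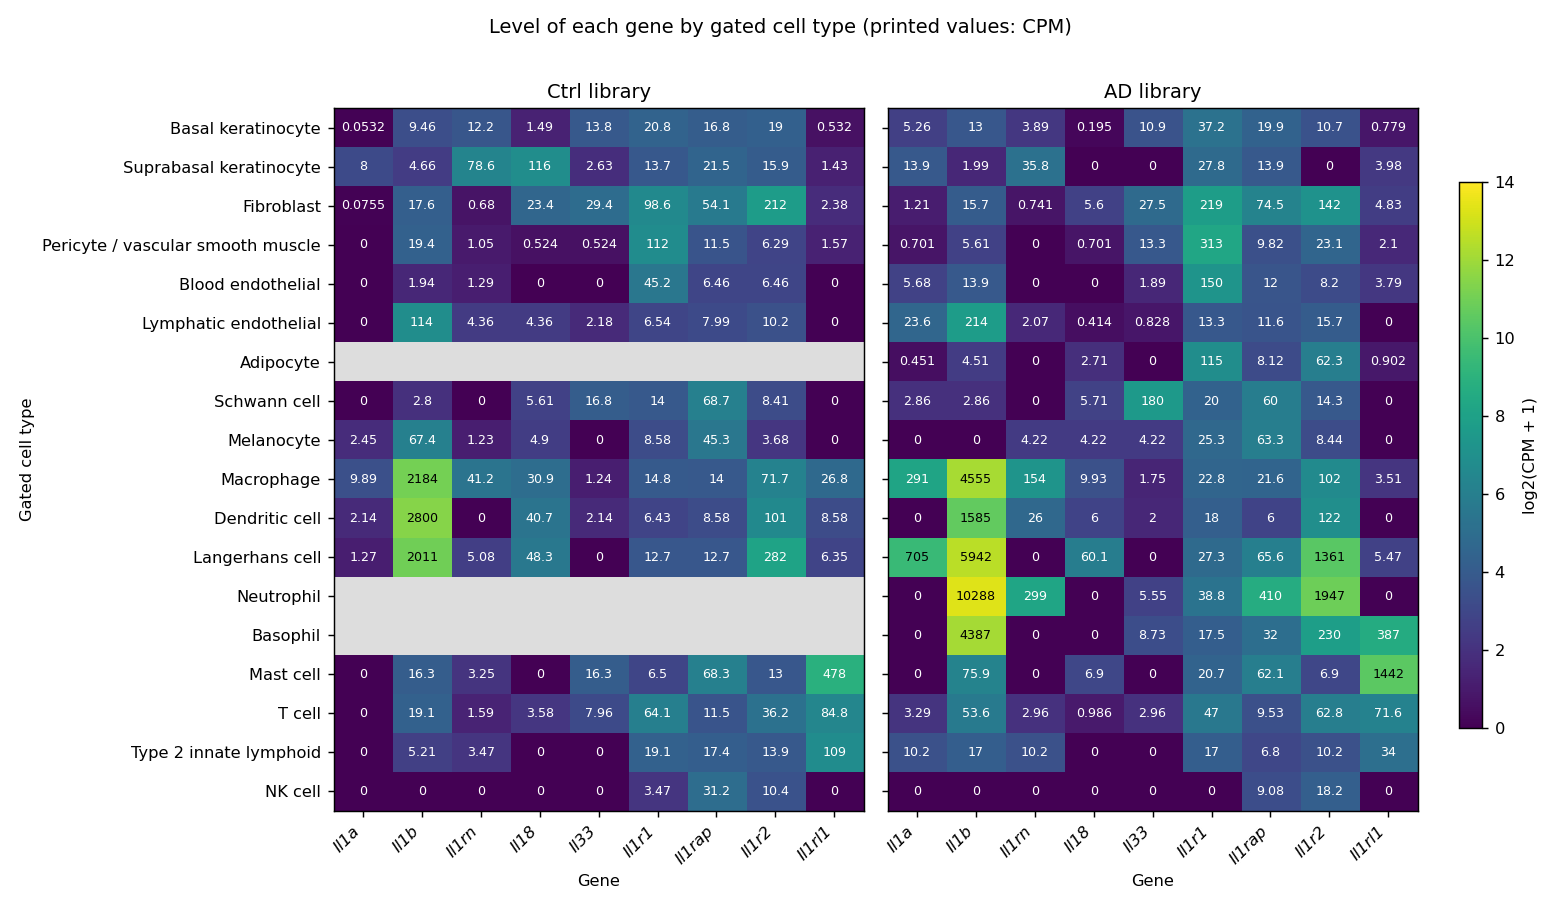
Level of the 9 genes in each gated cell type of the Ctrl and the AD library, with CPM printed in each cell and colour on the log2(CPM + 1) scale; grey marks gates with fewer than 15 cells. Il1b reached 4555 CPM in AD macrophages and 10288 CPM in AD neutrophils. Il1r1 was highest in pericytes and vascular smooth muscle cells (112 CPM in Ctrl, 313 CPM in AD), and Il1rl1 in mast cells. Il1r2 was at 212 and 142 CPM in Ctrl and AD fibroblasts and at 1947 CPM in AD neutrophils.

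The gate that held most Il1a differed between the libraries. In Ctrl, the 11399 cells held 101 Il1a UMIs, of which 66.3% (95% interval 56.3 to 75.4) lay in the suprabasal keratinocyte gate at 7.999 CPM. Keratinocytes are the classical store of IL-1α in skin. In AD, the 8179 cells held 976 UMIs, of which 51.0% (47.8 to 54.2) lay in macrophages and 3.48% in keratinocytes of all gates. The level in keratinocytes was not lower in AD: all keratinocyte gates together were at 2.24 and 6.03 CPM (log2 ratio 1.43, 0.79 to 2.04, in 1979 and 370 cells), and the suprabasal gate was at 13.9 CPM in AD on 7 UMIs. In the macrophage gate, Il1a was at 9.89 CPM in Ctrl (24 UMIs in 493 cells) against 291 CPM in AD (498 UMIs in 200 cells), a log2 ratio of 4.88 (4.29 to 5.54). The share of macrophages with an Il1a UMI was 2.23% in Ctrl and 32.5% in AD, and at an equal depth of 1000 UMIs per cell it was 0.664% and 12.6%. The pericyte and vascular smooth muscle gate, taken as a type without Il1a, had 0 UMIs in Ctrl and 1 UMI in AD, at median depths of 5443 and 7474 UMIs against 4554 and 7505 in macrophages. Il1a was uneven among cells: the 5 highest AD macrophages held 42.0% of its macrophage UMIs. Basal keratinocytes held 1 UMI in Ctrl (0.0532 CPM) and 27 UMIs in AD (5.26 CPM), and 81.5% of the latter lay in 5 cells. Ungated AD cells held 189 UMIs, 19.4% of the library's Il1a. Lymphatic endothelial cells had 0 UMIs in 244 Ctrl cells, which at a limit of 3 UMIs allows up to 2.18 CPM, and 57 UMIs in AD (23.6 CPM), of which 49 came from 1 cell. No Il1a UMI was found in the 47 AD neutrophils or the 47 AD basophils, which at the same limit allows up to 16.6 and 8.73 CPM.

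Il1b, the main inflammatory product of myeloid cells in this family, had the most UMIs of the 9 genes in AD and was second to Il1r2 in Ctrl. It made up 12188 UMIs in Ctrl (116 CPM over all cells) and 18351 UMIs in AD (298 CPM). Macrophages were at 2184 CPM in Ctrl against 4555 CPM in AD, a log2 ratio of 1.06 (1.01 to 1.11), and held 43.5% and 42.5% of all Il1b UMIs. An Il1b UMI was present in 33.5% of Ctrl and 58.0% of AD macrophages. With equal depth these shares were 27.5% and 48.6%, against 0.461% and 0.699% of pericytes and vascular smooth muscle cells, whose median depths were 5443 and 7474 UMIs. Lymphatic endothelial cells had higher shares than these, 2.60% and 2.50%. They were at 114 and 214 CPM, with 95.5% and 95.9% of their UMIs in 5 cells. The neutrophil gate had the highest level, 13384 CPM in 5 Ctrl cells and 10288 CPM in 47 AD cells, and all of these cells had an Il1b UMI. Neutrophils, cells that enter inflamed skin from the blood, held 0.845% of the Il1b UMIs in Ctrl and 10.1% in AD. AD basophils were at 4387 CPM, with a UMI in 51.1% of 47 cells and 48.8% of the UMIs in 5 cells. Dendritic cells, which carry antigen to lymph nodes, had the opposite order, with 2800.3 CPM in 59 Ctrl cells and 1585 CPM in 33 AD cells (log2 ratio -0.82, -0.95 to -0.69), and 5 of the AD cells held 84.5% of their UMIs. The dendritic cell ratio was -2.27 when 1 more marker was required and -0.42 when whole clusters were used, so its direction held under these settings and its size did not. Fibroblasts were low in both, at 17.6 and 15.7 CPM.

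The macrophage values depended on where in the myeloid compartment the cells lay. One cluster of 472 Ctrl and 164 AD cells, led by Cd74, H2-Ab1 and H2-Aa (antigen presentation by MHC class II), mixed cells of several gates and was given no cell type name. It held 83.2% of Ctrl and 56.5% of AD Il1b UMIs, and its ungated cells alone held 18.3% and 17.9%. Of the gated macrophages, 111 Ctrl and 49 AD cells lay in that cluster, and there Il1b was at 5789 and 7703 CPM (log2 ratio 0.41, 0.35 to 0.47). The 371 Ctrl and 151 AD gated macrophages of the macrophage cluster were at 484 and 2736 CPM (log2 ratio 2.50, 2.38 to 2.62). Counting only the latter, macrophages held 16.2% of AD Il1b UMIs in place of 42.5%, 30.02% of Il1a UMIs in place of 51.0%, and 38.1% of Il1rn UMIs in place of 56.3%. Il1a and Il1rn had the higher level in AD in both parts. Il1a had log2 ratios of 5.38 in the macrophage cluster and 4.13 in the mixed cluster, and Il1rn of 1.71 and 2.42. Split by MHC class II genes, Il1b was at 2949 and 4222 CPM in macrophages with a high level of them and at 19.3 and 732 CPM in those with a low level, the latter from 10 UMIs in 103 Ctrl cells and 217 UMIs in 44 AD cells. Il1a was found more often in AD macrophages with an Il1b UMI (57 of 116, 49.1%) than in those without (9.52%), and the former were also deeper, with medians of 8897 and 4224.5 UMIs. In Ctrl the shares were 4.85% and 0.915%.

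The 15 AD cells of the Langerhans gate went against their label. Their 8 macrophage markers summed to 4537 CPM, against 473 CPM in the 96 Ctrl cells and 6275 CPM in AD macrophages. In these cells Il1b was at 2011 and 5942 CPM in Ctrl and AD, and Il1r2 at 282 and 1361 CPM. Il1a was at 1.27 CPM (1 UMI) in Ctrl and 705 CPM (129 UMIs) in AD, but 113 of those UMIs came from 1 cell. These values describe cells with Cd207 and at least 3 Langerhans markers, and no difference in Langerhans cells is read from them.

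Il1rn, the receptor antagonist, was mainly a keratinocyte transcript in Ctrl and mainly a macrophage transcript in AD. Keratinocytes of all gates held 81.7% of 1089 UMIs in Ctrl and 8.14% of 467 UMIs in AD, while macrophages held 9.18% and 56.3%. The suprabasal gate was at 78.6 CPM in Ctrl, with a UMI in 55.9% of 438 cells, against 35.8 CPM in AD (18 UMIs in 19 cells, 15 of them in 1 cell). Basal keratinocytes were at 12.2 and 3.89 CPM (log2 ratio -1.64, -2.38 to -0.98). With all deposited barcodes this ratio was -0.69, and as a mean over cells it was -0.54. Macrophages had the opposite order, 41.2 CPM in Ctrl against 154 CPM in AD (log2 ratio 1.90, 1.56 to 2.25). AD neutrophils were at 299 CPM, with a UMI in 53.2% of cells, and held 11.6% of the library's Il1rn UMIs. The share of macrophages with an Il1rn UMI at equal depth was 3.93% and 11.2%, against 0.112% and 0% in pericytes and vascular smooth muscle cells. Per UMI of Il1a and Il1b together, all cells held 0.0886 UMIs of Il1rn in Ctrl and 0.0242 in AD. In keratinocytes of all gates this ratio was 3.01 in Ctrl and 0.373 in AD. It was 6.21 and 2.25 in the suprabasal gate and 1.28 and 0.213 in the basal gate. With 438 and 19 suprabasal cells, the pooled ratio compares unlike mixtures of these gates. The pooled AD value rests on 38 UMIs of Il1rn and 102 of Il1a and Il1b, of which 45 Il1b UMIs came from 1 cell. In the macrophage gate the ratio was 0.0188 and 0.0317. The macrophage order depended on the cluster: it was 0.102 in Ctrl and 0.0546 in AD among gated macrophages of the macrophage cluster, and 0.00437 and 0.0169 in those of the mixed cluster.

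Since Il1a, Il1b and Il1rn were all higher in AD macrophages, the 300 bases around their first listed RefSeq start sites (250 before to 50 after, GRCm38.p6) are shown, with motif matches in capitals. The windows are chr2:129309923-129310222 on the minus strand for Il1a, chr2:129371090-129371389 on the minus strand for Il1b, and chr2:24336610-24336909 on the plus strand for Il1rn.
Il1a: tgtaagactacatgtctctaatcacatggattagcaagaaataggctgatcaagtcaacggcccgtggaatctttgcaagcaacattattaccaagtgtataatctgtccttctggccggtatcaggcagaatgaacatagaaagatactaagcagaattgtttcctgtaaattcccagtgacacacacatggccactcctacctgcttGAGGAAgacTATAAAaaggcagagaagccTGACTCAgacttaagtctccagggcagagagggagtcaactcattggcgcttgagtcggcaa
Il1b: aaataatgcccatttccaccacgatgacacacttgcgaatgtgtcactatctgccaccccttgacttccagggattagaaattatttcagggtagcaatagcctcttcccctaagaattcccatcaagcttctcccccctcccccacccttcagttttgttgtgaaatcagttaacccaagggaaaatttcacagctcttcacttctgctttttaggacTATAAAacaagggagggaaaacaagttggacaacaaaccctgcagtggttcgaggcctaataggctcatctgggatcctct
Il1rn: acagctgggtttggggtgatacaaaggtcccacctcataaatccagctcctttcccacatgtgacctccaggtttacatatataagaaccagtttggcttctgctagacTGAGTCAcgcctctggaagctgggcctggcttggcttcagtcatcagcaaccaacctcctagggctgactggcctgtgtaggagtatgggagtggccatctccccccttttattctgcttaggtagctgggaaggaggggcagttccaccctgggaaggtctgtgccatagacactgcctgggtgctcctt
In these windows the capitals mark matches, on either strand, to motifs of factors that act on inflammatory genes or on the start of transcription. The motif of PU.1, a factor of myeloid cells, was searched as GAGGAA. The TATA box was searched with the letters TATAAA. For AP-1 the motif was TGANTCA, and for C/EBP it was TTGCNNAA, where N is any base, and the NF-κB consensus was searched too. Il1a held a PU.1 match at -41 to -36, a TATA box at -32 to -27 and an AP-1 match at -12 to -6, counted from the start site at 0. Il1b held a TATA box at -31 to -26, and Il1rn an AP-1 match at -141 to -135. Il1rn has further listed start sites, with windows at chr2:24345041-24345340 and chr2:24345121-24345420 that are not shown. Neither held an AP-1 match. Which Il1rn start site macrophages used cannot be told from counts at the 3′ end. Of 32851 promoter windows of the same length, 28.3% held the PU.1 letters, 13.6% the TATA box, 7.81% AP-1, 10.8% C/EBP and 8.46% the NF-κB consensus. A match describes letters in the window, not a bound site.

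Il18 was lower in AD in fibroblasts, keratinocytes, macrophages and dendritic cells. It made up 2445 UMIs in Ctrl (23.2 CPM over all cells) and 257 UMIs in AD (4.17 CPM), a log2 ratio of -2.48 (-2.67 to -2.29). Fibroblasts held 50.7% of the Ctrl and 79.4% of the AD Il18 UMIs, beside 50.3% and 59.1% of the UMIs of all genes. Their Il18 level was 23.4 and 5.60 CPM (log2 ratio -2.06, -2.28 to -1.85). Of the 1239 fibroblast UMIs in Ctrl, 1171 were in adventitial fibroblasts, a subset of the deep dermis and vessel sheath, at 36.7 CPM in Ctrl against 10.7 CPM in AD. In these, a UMI was present in 23.1% of 3164 cells from Ctrl and 8.68% of 1060 from AD, with at most 8 UMIs in 1 cell, so the level was spread over many cells. At equal depth the shares were 3.21% and 1.16%. The log2 ratio was -1.78 in adventitial, -0.998 in papillary (interval -2.24 to 0.08) and 0.65 in the other fibroblasts. All fibroblasts together, at -2.06, thus had a lower ratio than any of these subsets. Adventitial cells numbered 3164 of 5575 Ctrl and 1060 of 4626 AD fibroblasts, so the pooled ratio compares unlike mixtures of subsets. The part of this mixture in the pooled ratio was not tested. Blood endothelial cells, taken as a type without Il18, had 0 UMIs in 199 Ctrl and 150 AD cells at median depths of 5842 and 9310 UMIs. Pericytes and vascular smooth muscle cells were at 0.524 and 0.701 CPM. Schwann cells were near the AD fibroblast level, at 5.61 and 5.71 CPM on 4 and 2 UMIs. Melanocytes were at 4.90 and 4.22 CPM on 4 and 1 UMIs. Suprabasal markers summed to 281 CPM in Ctrl fibroblasts and 33.2 CPM in AD fibroblasts, and their part in the Il18 difference was not tested. The suprabasal gate was at 116 CPM in Ctrl, but 60.7% of its 972 UMIs came from 5 of 438 cells and 9.59% of cells had a UMI. In AD, keratinocytes of all gates held 1 Il18 UMI, and the 19 suprabasal cells held 0, which allows up to 5.96 CPM. Macrophages were at 30.9 and 9.93 CPM (log2 ratio -1.64, -2.49 to -0.86), and dendritic cells at 40.7 and 6.00 CPM on 19 and 3 UMIs. Macrophages of the macrophage cluster were at 22.1 and 11.1 CPM and those of the mixed cluster at 52.2 and 7.98 CPM. Cells of the Langerhans gate were at 48.3 and 60.1 CPM on 38 and 11 UMIs, and since the AD cells went against their label no difference is read from this. Fibroblasts outside the adventitial and papillary subsets ran against the lower level in AD, at 2.64 and 4.15 CPM in 1533 Ctrl and 3207 AD cells.

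**Figure D2:**
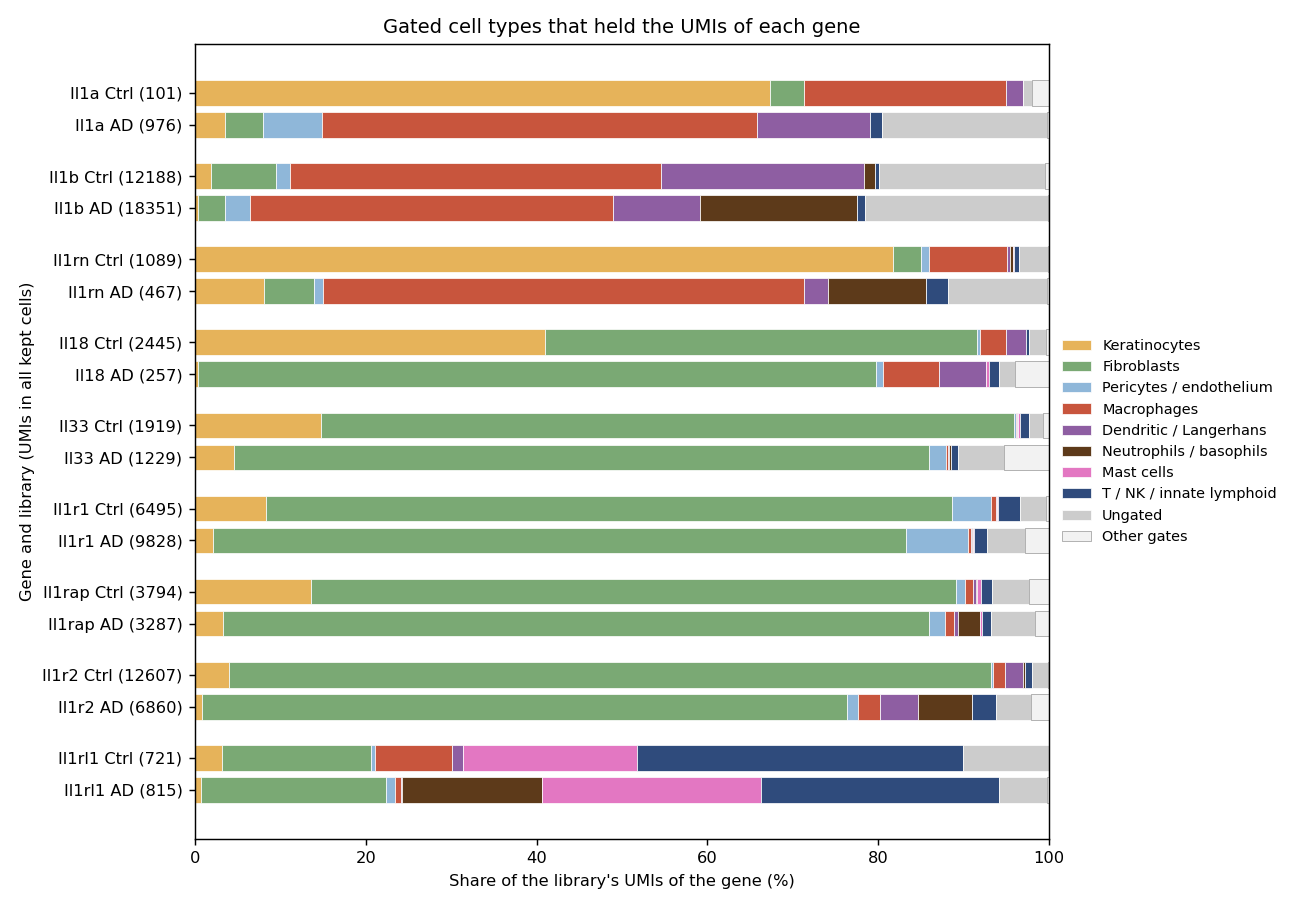
Share of each gene's UMIs that was held by each group of gated cell types in the Ctrl and the AD library, with the UMIs of all kept cells in brackets; each bar adds up to the whole library. Il1rn and Il1a went from mostly keratinocytes in Ctrl to mostly macrophages in AD, while fibroblasts held 80.4% and 81.2% of Il1r1 in Ctrl and AD.

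Il33, the nuclear alarm cytokine, lay mainly in fibroblasts, with basal keratinocytes second in Ctrl (13.5% of its UMIs). Fibroblasts held 81.2% of 1919 Ctrl UMIs and 81.4% of 1229 AD UMIs, at 29.4 and 27.5 CPM. The log2 ratio was -0.10, with an interval of -0.21 to 0.02 that included 0. Within fibroblasts the subsets went in opposite directions. Adventitial fibroblasts were at 42.2 and 25.7 CPM (log2 ratio -0.72, -0.92 to -0.52). Papillary fibroblasts, of the upper dermis, were at 6.94 and 33.9 CPM (log2 ratio 2.29, 1.85 to 2.74), and 10.3% of 359 AD cells had a UMI against 2.96% of 878 Ctrl cells. The other fibroblasts had the papillary order, at 12.2 and 26.9 CPM (log2 ratio 1.14, 0.88 to 1.41). They held 7.71% of the Ctrl and 49.1% of the AD Il33 UMIs. Basal keratinocytes were at 13.8 and 10.9 CPM (log2 ratio -0.34, -0.78 to 0.08). Schwann cells, which wrap nerve fibres, were at 16.8 CPM in Ctrl (12 UMIs in 201 cells) against 179.9 CPM in AD (63 UMIs in 90 cells). Only 8.89% of the AD Schwann cells had a UMI, 85.7% of the UMIs lay in 5 cells, and fibroblast markers summed to 3774 and 2193 CPM in this gate. The Schwann value therefore rests on few cells, and the part of fibroblast RNA in it was not tested. Macrophages had 3 Il33 UMIs in each library, a share of 0.406% and 1.5% of cells at median depths of 4554 and 7505 UMIs.

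The signalling receptor Il1r1 had a higher level in AD in stromal and vascular cells. Fibroblasts held 80.4% of 6495 Ctrl UMIs and 81.2% of 9828 AD UMIs, and were at 98.6 CPM in Ctrl against 219 CPM in AD, a log2 ratio of 1.15 (1.10 to 1.20). The 3 fibroblast subsets all had the higher value in AD: adventitial fibroblasts were at 110.2 and 194 CPM, papillary fibroblasts at 77.1 and 243 CPM, and the other fibroblasts at 84.0 and 225 CPM. Pericytes and vascular smooth muscle cells had the highest level of the main gates with at least 20 cells in each library, at 112 and 313 CPM (log2 ratio 1.49, 1.25 to 1.73). The ratio was 1.09 when 1 more marker was required. Blood endothelial cells were at 45.2 and 149.5 CPM (log2 ratio 1.73, 1.33 to 2.13), whereas lymphatic endothelial cells stayed low at 6.54 and 13.3 CPM. With equal depth, 12.9% of Ctrl and 23.2% of AD pericytes and vascular smooth muscle cells had an Il1r1 UMI, against 0.764% and 1.79% of lymphatic endothelial cells at median depths of 4062.5 and 5900 UMIs. Basal keratinocytes were at 20.8 and 37.2 CPM (log2 ratio 0.84, 0.58 to 1.09). Adipocytes, a gate with 125 cells in AD and 1 in Ctrl, were at 115 CPM in AD. Among T cells, the γδ subset had the highest Il1r1 level, at 149 CPM (132 cells, Ctrl) and 214 CPM (44 cells, AD), and the interval of their log2 ratio (0.52, -0.05 to 1.07) included 0. It did not include 0 for cells of T cell clusters (0.65, 0.08 to 1.20) or without the top 5% of doublet scores (0.67, 0.10 to 1.22). T cells as a whole were at 64.1 and 47.0 CPM.

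The accessory chain Il1rap, which both IL-1R1 and ST2 need, lay mainly in fibroblasts and was also found in mast cells, Schwann cells, melanocytes and neutrophils. Fibroblasts held 75.5% of 3794 Ctrl UMIs and 82.6% of 3287 AD UMIs, at 54.1 and 74.5 CPM (log2 ratio 0.46, 0.39 to 0.54). When each cell had equal weight the ratio was 0.05. Papillary fibroblasts were at 57.0 and 159 CPM (log2 ratio 1.48, 1.31 to 1.64), whereas adventitial fibroblasts were at 60.1 and 49.1 CPM (log2 ratio -0.29, -0.44 to -0.15). The other fibroblasts had the papillary order, at 36.0 and 68.7 CPM (log2 ratio 0.93, 0.78 to 1.09). In papillary fibroblasts with an Il1r1 UMI, an Il1rap UMI was present in 48.6% (391 cells, Ctrl) and 75.0% (248 cells, AD), against 25.7% and 36.9% of those without an Il1r1 UMI, which were shallower (medians of 7676 and 8660 UMIs against 9949 and 13566). Mast cells were at 68.3 and 62.1 CPM, Schwann cells at 68.7 and 60.0 CPM, and melanocytes at 45.3 and 63.3 CPM, with intervals of the ratio that included 0 in each. AD neutrophils had the highest level, 410.4 CPM, with a UMI in 68.1% of 47 cells. Lymphatic endothelial cells were at 7.99 and 11.6 CPM.

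The decoy receptor Il1r2 was above Il1r1 in Ctrl fibroblasts and below it in AD fibroblasts. Fibroblasts held 89.2% of 12607 Ctrl UMIs and 75.6% of 6860 AD UMIs, at 212 and 142 CPM (log2 ratio -0.58, -0.63 to -0.53). Per Il1r1 UMI, fibroblasts held 2.15 UMIs of Il1r2 in Ctrl and 0.650 in AD. The ratio was lower in AD in each subset: 2.40 and 1.01 in adventitial, 2.21 and 0.491 in papillary, and 1.28 and 0.553 in the other fibroblasts. Basal keratinocytes had the same order, 0.911 and 0.288, while macrophages held 4.83 and 4.49. The macrophage order depended on the cluster. Gated macrophages of the macrophage cluster held 13 UMIs of Il1r2 and 5 of Il1r1 in Ctrl, and 23 and 22 in AD, a lower ratio in AD. Those of the mixed cluster held 160 and 28 in Ctrl, and 152 and 17 in AD, a higher ratio in AD. The level itself was lower in AD in adventitial (264 and 195 CPM) and papillary fibroblasts (171 and 119.5 CPM), but higher in the other fibroblasts (107 and 124 CPM), so there the lower ratio went with the higher Il1r1. The log2 ratios of Il1r2 in these subsets were -0.44, -0.51 and 0.22. Adventitial cells numbered 3164 of 5575 Ctrl and 1060 of 4626 AD fibroblasts, so values of all fibroblasts compare unlike mixtures of subsets. Fibroblasts with an Il1r2 UMI often carried Il1r1 as well, in 58.9% of 3364 such cells from Ctrl and 70.5% of 1980 from AD, against 35.2% and 48.5% of those without, at median depths of 9498.5 and 8348 UMIs against 7459 and 6244.

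Outside fibroblasts, Il1r2 was found in neutrophils, basophils, antigen-presenting myeloid cells and regulatory T cells. AD neutrophils were at 1947 CPM, with a UMI in 95.7% of 47 cells, and held 5.12% of the AD Il1r2 UMIs. AD basophils were at 230.0 CPM, with 84.8% of the UMIs in 5 cells. Macrophages were at 71.7 and 102 CPM (log2 ratio 0.51, 0.20 to 0.82), and Il1r2 was found in 33.9% of Ctrl and 30.2% of AD macrophages with an Il1b UMI, against 1.22% and 3.57% of those without (median depths of 5728 and 8897 UMIs against 3895.5 and 4224.5). These macrophage values came mainly from the mixed cluster, where Il1r2 was at 214 and 243 CPM, against 8.45 and 21.2 CPM in the macrophage cluster. Dendritic cells were at 101 and 122 CPM, with a ratio whose interval (-0.30 to 0.86) included 0. Regulatory T cells, which restrain immune responses, were at 121 CPM in both libraries (69 UMIs in 176 Ctrl cells, 148 UMIs in 136 AD cells), and the interval of their log2 ratio ran from -0.42 to 0.44. In AD, 54 of these UMIs came from 1 cell. γδ T cells, rich in Il1r1, had 4 Il1r2 UMIs in Ctrl and 0 in AD, the latter allowing up to 14.6 CPM. The share of cells with an Il1r2 UMI at equal depth was 18.5% and 11.5% in fibroblasts, against 0.743% and 1.36% in lymphatic endothelial cells.

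**Figure D3:**
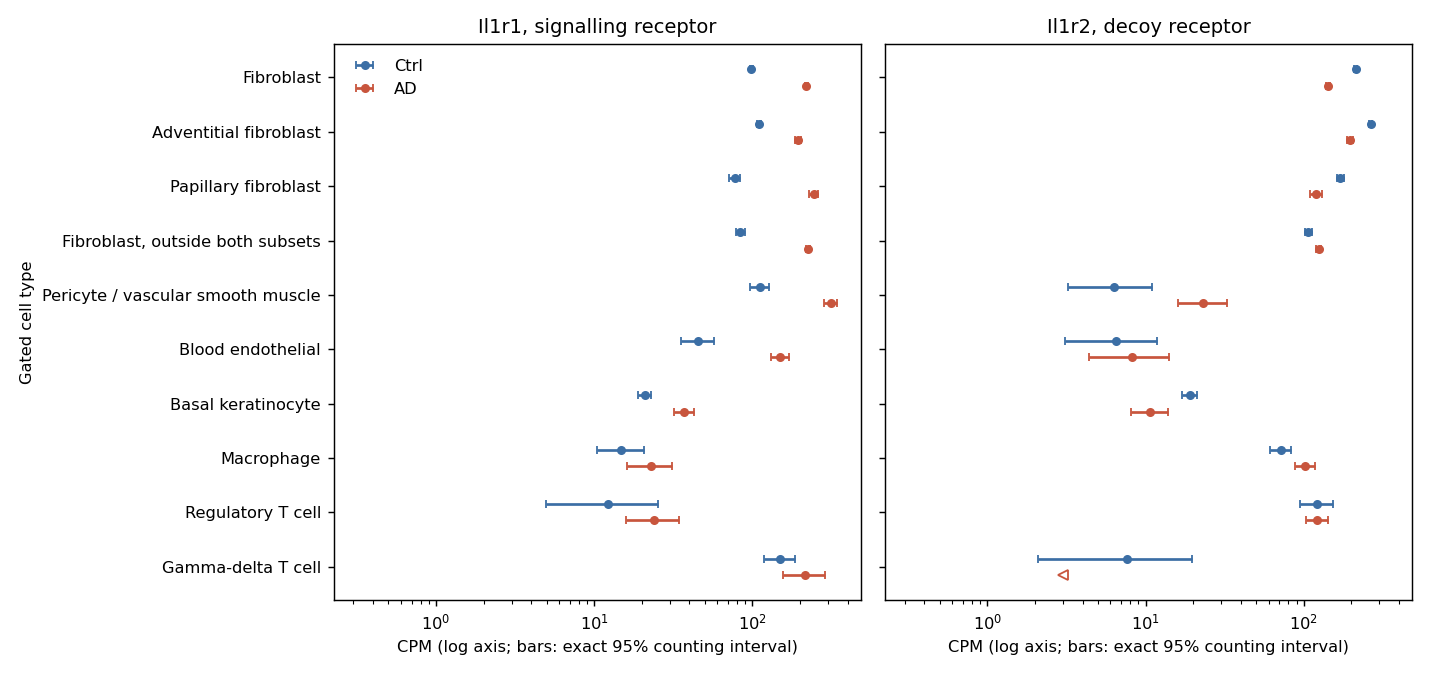
CPM of the signalling receptor Il1r1 and the decoy receptor Il1r2 by gated cell type in Ctrl and AD on a log axis, with bars for the exact 95% counting interval and an open triangle for 0 UMIs. Il1r1 lay to the right in AD in fibroblasts (98.6 and 219 CPM) and their subsets, where Il1r2 lay to the left in all fibroblasts together (212 and 142 CPM).

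Il1rl1, the ST2 receptor, had its highest levels in mast cells, AD basophils and regulatory T cells. It made up 721 UMIs in Ctrl and 815 in AD. Mast cells, which release histamine and proteases, were at 478 CPM (133 cells) in Ctrl against 1442 CPM (47 cells) in AD, a log2 ratio of 1.59 (1.28 to 1.91). An Il1rl1 UMI was present in 26.3% of Ctrl and 74.5% of AD mast cells. At equal depth the shares were 23.2% and 63.3%, against 0% of lymphatic endothelial cells in both libraries (0 of 244 and 0 of 306 cells, which at a limit of 3 cells allows a UMI in up to 1.23% and 0.980% of cells, not a limit on expression, at median depths of 4062.5 and 5900 UMIs against 1657 and 2655). Basophils were at 387 CPM in AD, with a UMI in 80.9% of 47 cells, and the 7 Ctrl basophils held 0 UMIs. Regulatory T cells and type 2 innate lymphoid cells had the opposite order. The former were at 333 CPM in Ctrl against 129.6 CPM in AD (log2 ratio -1.36, -1.68 to -1.05), and the latter at 109 and 34.0 CPM (log2 ratio -1.69, -2.82 to -0.71) on 63 and 10 UMIs. The regulatory gate takes any 3 of its markers, so Foxp3 was not required. For its cells in T cell clusters the ratio was -1.33. The T cell cluster with the most Il1rl1 UMIs in Ctrl held 264 Ctrl and 81 AD cells. It was at 341 and 222 CPM, with a UMI in 42.4% and 39.5% of cells. Other T cell clusters were at 18.7 and 55.7 CPM and at 45.8 and 22.4 CPM. No cluster was made up mainly of type 2 innate lymphoid cells, so their ratio could not be checked by cluster. In the type 2 innate lymphoid gate, suprabasal markers summed to 1718 CPM in Ctrl and 30.6 CPM in AD, and fibroblast markers to 1561 and 357 CPM. Suprabasal markers summed to 1258 and 13.8 CPM in the mast cell gate. The part of RNA from other cells in the Il1rl1 differences of these gates was not tested. T cells outside the regulatory and γδ subsets were at 16.2 and 37.05 CPM (log2 ratio 1.19, 0.48 to 1.96), and T cells as a whole were at 84.8 and 71.6 CPM with an interval of -0.52 to 0.04. Macrophages were at 26.8 and 3.51 CPM, from 65 and 6 UMIs (log2 ratio -2.93, -4.43 to -1.73), and both cluster parts had the lower value in AD. Fibroblasts were low at 2.38 and 4.83 CPM but numerous, so that they held 17.5% and 21.6% of the UMIs, and in AD 56.8% of these lay in 5 cells. The mast cell gate held a UMI of Il1rap beside Il1rl1 in 5 of 35 cells with Il1rl1 in Ctrl and in 7 of 35 in AD.

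**Figure D4:**
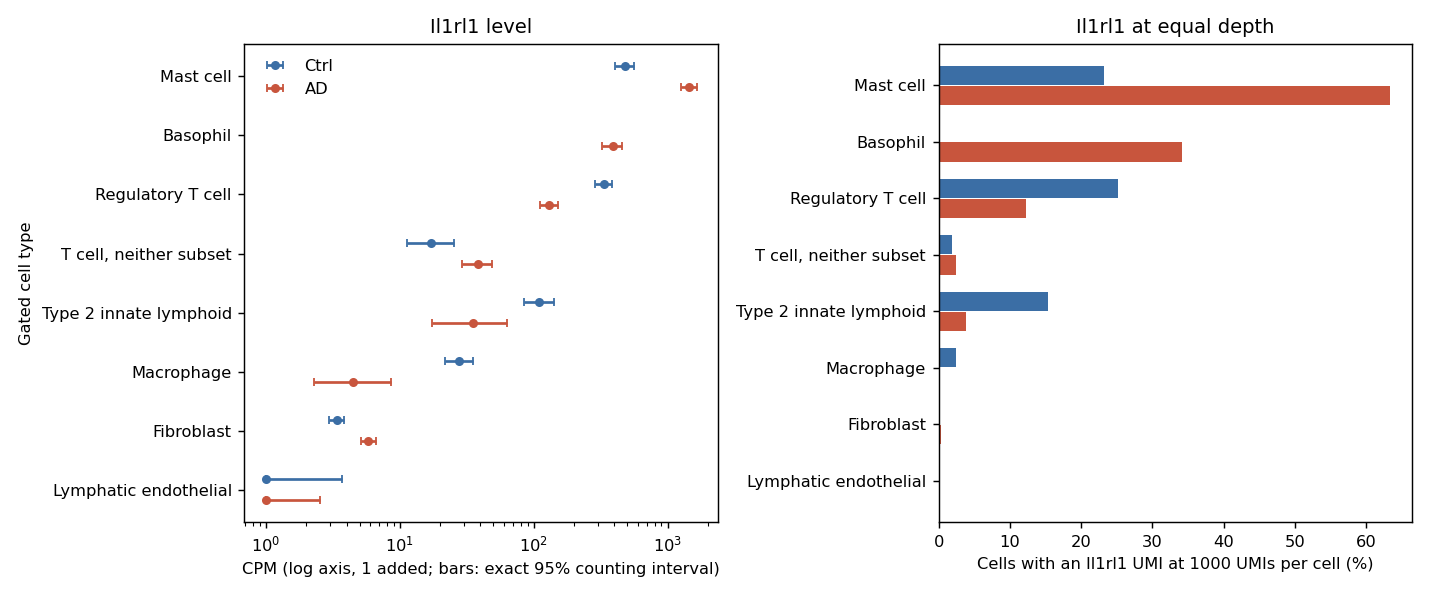
Il1rl1 by gated cell type in Ctrl and AD, as CPM with 1 added on a log axis with exact 95% counting intervals (left) and as the expected share of cells with a UMI at 1000 UMIs per cell (right); gates with fewer than 15 cells are not drawn. Mast cells lay higher in AD (478 and 1442 CPM) and regulatory T cells lower (333 and 129.6 CPM).

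Members past a 2-fold difference were counted among those with at least 10 CPM in either library, beside the share of all such genes. In macrophages, 3 of 8 members were past 2-fold higher in AD (Il1a, Il1b, Il1rn), against 5.56% of 8449 genes, and 2 of 8 past 2-fold lower (Il18, Il1rl1), against 10.5%. In fibroblasts, 1 of 6 was higher (Il1r1), against 6.96% of 9120 genes, and 1 of 6 lower (Il18), against 12.5%. In basal keratinocytes, 0 of 6 were higher, against 5.15% of 9279 genes, and 1 of 6 was lower (Il1rn), against 11%. T cells had 1 of 5 higher (Il1b), against 2.72% of 8755 genes, and 0 lower, against 9.69%. In T cells 90.8% of the AD Il1b UMIs lay in 5 cells, and in regulatory T cells of T cell clusters Il1b was at 12.6 and 19.4 CPM. Lymphatic endothelial cells had 1 of 5 higher (Il1a, mostly from 1 cell), against 4.37% of 8946 genes, and 0 lower, against 10.4%. The median log2 ratio of all genes was -0.19 in basal keratinocytes, -0.20 in T cells and between -0.07 and -0.09 in the other 3 types, so ratios in basal keratinocytes and T cells sit on a lower base.

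**Figure D5:**
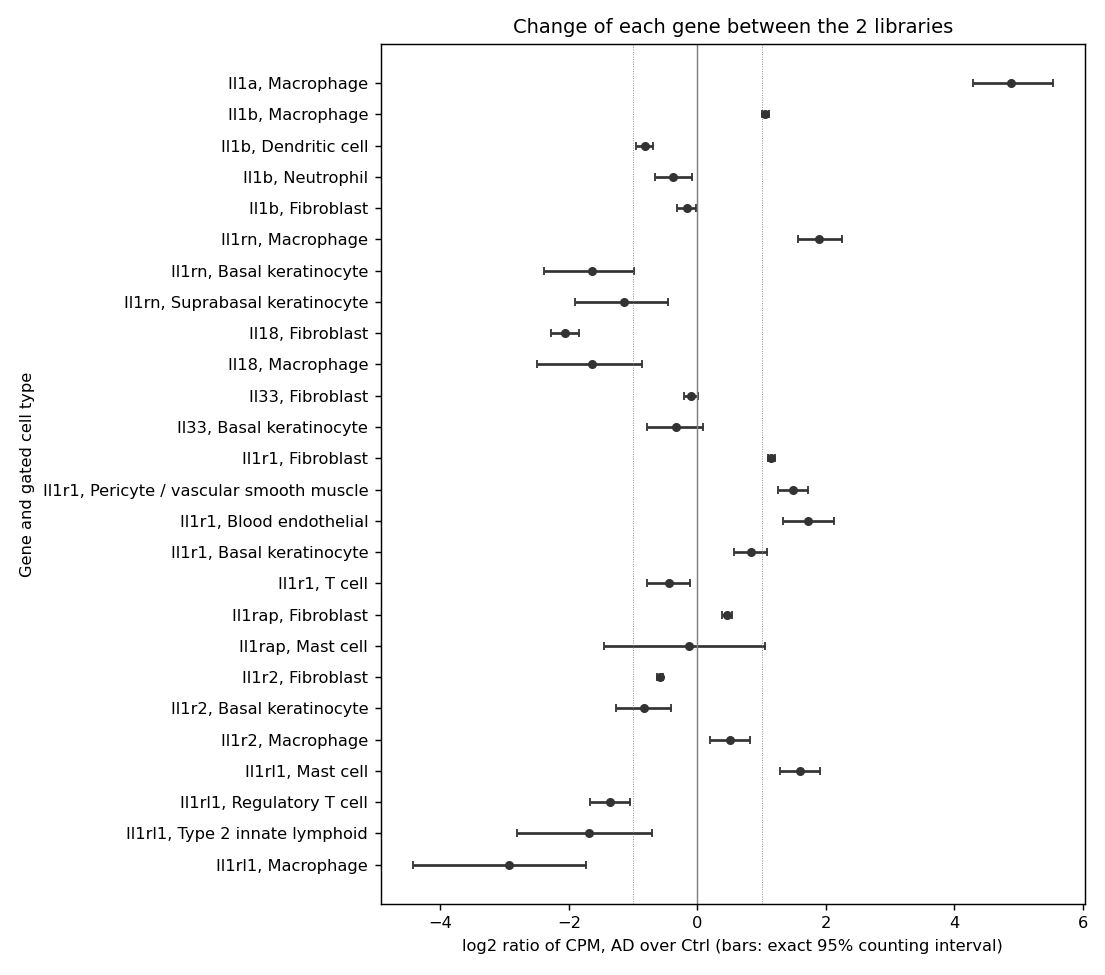
Log2 ratio of CPM in AD over Ctrl for 26 pairs of gene and gated cell type, with bars for the exact 95% counting interval and dotted lines at a 2-fold difference. Of the pairs drawn, Il1a in macrophages lay farthest to the right (4.88) and Il1rl1 in macrophages farthest to the left (-2.93); Il1a and Il18 in keratinocytes are not drawn.

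The rest of the pathway was read from lists of processing, signalling and response genes. Genes that IL-1 is known to induce, such as the neutrophil attractants Cxcl1 and Cxcl2 and the cytokine Il6, were mostly higher in AD: 8 of 11 in fibroblasts, 6 of 8 in basal keratinocytes, 9 of 11 in macrophages, 5 of 9 in T cells and 7 of 11 in lymphatic endothelial cells were past 2-fold, beside 6.96%, 5.15%, 5.56%, 2.72% and 4.37% of all genes tested, and 0 were past 2-fold lower in these 5 types. In fibroblasts Cxcl1 was at 368 and 1639 CPM, Il6 at 209 and 733 CPM, and the acute phase gene Saa3 at 1.76 and 309.5 CPM. These genes are also induced by other signals. In T cells the genes past 2-fold were Cxcl1, Cxcl2, Il6, Mmp3 and Lif. Fibroblast markers summed to 1795 CPM in Ctrl and 547 CPM in AD in the T cell gate. In the lymphatic endothelial gate they summed to 5569 and 871 CPM. The part of fibroblast RNA in the counts of these 2 types was not tested. The median log2 ratio of the list was 1.67 in fibroblasts and 1.43 in macrophages. Of the signalling genes, 2 of 11 in fibroblasts were past 2-fold higher: the adaptor Myd88 (40.7 and 112 CPM) and Irak3, an inhibitor of the pathway (88.7 and 212 CPM). Myd88 was also past 2-fold higher in basal keratinocytes (19.8 and 48.9 CPM) and lymphatic endothelial cells (26.9 and 65.4 CPM). Of the processing genes, the inflammasome sensor Nlrp3 was higher in AD macrophages (98.9 and 289 CPM), while Casp1 was at 49.0 and 43.8 CPM there. In fibroblasts, 3 of 6 processing genes were past 2-fold lower (12.5% of all genes tested), the adaptor Pycard (31.3 and 6.64 CPM) and the calpains Capn1 (45.4 and 17.8 CPM) and Capn2 (147 and 63.3 CPM), and 1 was higher, Casp4 (39.9 and 86.2 CPM). In macrophages, 1 of 9 processing genes was past 2-fold higher and 1 lower (Capn1), and 1 of 12 signalling genes was higher (Irak2, 40.0 and 88.8 CPM). In T cells 0 of 7 processing and 0 of 12 signalling genes were past 2-fold. Among the other ligands and receptors, Il1rl2, the receptor for IL-36, was the 1 gene with at least 10 CPM in fibroblasts, at 88.9 and 81.2 CPM.

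Likeness of pattern was measured as Pearson's r of log2(CPM + 1) over the 31 combinations of gated type and library with at least 20 cells, which share libraries and depth, so it is a description. Il1b was most like Alox5ap (0.945), Spi1 (0.895) and Cd300a (0.886), and Il1rl1 most like Il13 (0.900), Adora3 (0.881) and Cd200r4 (0.869). Il1r2 was most like Ptgs2 (0.792) and Il1r1 most like Cygb (0.782). The nearest genes of Il1a (Msr1, 0.714), Il1rn (Sirpb1b, 0.712), Il1rap (Igfbp6, 0.701), Il33 (Nfasc, 0.694) and Il18 (Naaa, 0.694) were less close.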

How the data were processed

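Single-cell RNA-seq of dorsal skin was analysed from 1 Ctrl and 1 AD library. The authors deposited count matrices in which each value is the count of UMIs of a gene in a barcode, not normalized, from Cell Ranger on mm10. The version differs by source: 5.0.0 per the file headers and 3.1.0, with Seurat 5.0, per the submitters' processing notes, while the study's methods state other versions of both tools. Both matrices hold at least 501 UMIs per barcode and totals of 125184653 (Ctrl) and 76106062 (AD) UMIs, and CPM precision follows from the UMIs behind each value.

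Barcodes were kept when they had between 200 and 6000 genes and no more than 10% of UMIs from 13 mitochondrial genes. No doublet was removed. A marker counted in a cell when it had a UMI and reached 0.25 times the library's mean CPM; 3 markers were required and the type with the largest fraction of its list was taken. Langerhans cells also needed a Cd207 UMI, and type 2 innate lymphoid cells no UMI of a Cd3 gene. All 160 markers were found, 3 of them under another symbol. Leiden clusters (resolution 1, members left out, scanpy 1.11.5 on Python 3.11.15) served to check the gates that were the main type of a cluster. Ratios have exact conditional 95% intervals, CPM exact Poisson intervals and shares Clopper-Pearson intervals (scipy 1.17.1), all for counting error only; for a count of 0 the limit given is that of 3 counts. Equal-depth shares are the expected share of cells with a UMI at 1000 UMIs, leaving out shallower cells (in Ctrl and AD, 105 and 90 fibroblasts, 20 and 13 macrophages, 24 and 15 mast cells, 14 and 16 lymphatic endothelial cells, 4 and 2 pericytes or vascular smooth muscle cells, 19 and 0 adventitial fibroblasts). Calls past 2-fold used 1 CPM added. All 9 members and the pathway lists were named by a fixed rule, and the genes most like a member were ranked by correlation among those with at least 100 CPM in a group (gate markers left out). The settings tried instead are given under the effects of processing. Intervals and fold calls were tested on simulated data. Members and lists were chosen with earlier results of these data known.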

Additional observations from a re-analysis of the deposited data

How the results depend on the processing

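No paired analysis was possible because each group has 1 library and no result comes from a test; for the same reason leaving out replicates was not possible. Of the log2 ratios recomputed, none whose interval left out 0 reversed its direction. Ratios with an interval that included 0 were not checked for a reversal, and counts of genes and shares were compared in size only. The ratio of Il1rn to Il1a and Il1b in macrophages, 0.0188 in Ctrl and 0.0317 in AD, had the opposite order (0.102 and 0.0546) within the macrophage cluster. Scrublet's own threshold called 395 doublets in Ctrl and 0 in AD, so leaving out the top 5% of doublet scores was used in its place. That setting and the use of whole clusters were chosen after seeing the data. The cause of each shift below was not tested.

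The log2 ratio of Il1b in macrophages was 0.998 with all deposited barcodes, 1.43 with 1 more marker, 2.50 for gated cells of the macrophage cluster, 1.13 without the top doublet scores, 2.56 in whole clusters, 1.31 as a mean over cells and 1.13 after centring on the median gene. That of Il1a in macrophages was 5.54 in whole clusters, and that of Il1rn 1.46 as a mean over cells. That of Il1r1 in pericytes and vascular smooth muscle cells was 1.09 with 1 more marker and 0.90 as a mean over cells. That of Il1r2 in fibroblasts was -0.53 with all barcodes, -0.75 as a mean over cells and -0.51 after centring.

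The macrophage share of AD UMIs was, for Il1a, 46.5% with all barcodes, 42.6% with 1 more marker, 30.02% in gate and cluster and 31.0% in whole clusters. For Il1b it was 36.2% with 1 more marker, 16.2% in gate and cluster, 43.8% without the top doublet scores and 16.7% in whole clusters. For Il1rn it was 49.6% with all barcodes, 38.1% in gate and cluster and 39.8% in whole clusters. The fibroblast share of Il1r1 was 77.3% with all barcodes, 73.6% with 1 more marker, 79.3% in gate and cluster, 82.7% without the top doublet scores and 83.0% in whole clusters. That of Il1rap was 76.5%, 77.0%, 80.7% and 85.2% with all barcodes, 1 more marker, gate and cluster, and whole clusters. That of Il1r2 was 70.7% with 1 more marker and 73.5% in gate and cluster, and that of Il18 was 70.8% with 1 more marker. That of Il33 was 74.0% with all barcodes, 76.5% with 1 more marker and 78.5% in gate and cluster. The T cell share of Il1rl1 was 30.2% in whole clusters.

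At 1000 UMIs per cell, the AD share of cells with a UMI was 12.6% for Il1a, 48.6% for Il1b and 11.2% for Il1rn in macrophages, 23.2% for Il1r1 in pericytes and vascular smooth muscle cells and 11.5% for Il1r2 in fibroblasts. With at least 100 CPM, the genes past 2-fold higher and lower numbered 264 and 253 in fibroblasts, 147 and 164 in basal keratinocytes, 143 and 142 in macrophages, 48 and 119 in T cells, and 110 and 110 in lymphatic endothelial cells. In place of these, the 10 CPM limit gave 635 and 1143, 478 and 1019, 470 and 889, 238 and 848, and 391 and 931. Centring gave 401 genes higher in T cells, and adding 5 CPM gave 606 lower in lymphatic endothelial cells.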
